A study of Homo sapiens with 6 samples.

Results

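The short arm of human chromosome 19, without its numbered zinc finger genes, is described here across 6 RNA sequencing libraries. A gene belonged to it if the deposited table placed it on the primary chromosome 19 of GRCh38 with a start below position 24400000 and if its name was not ZNF followed by a number. This position rule, which used no measured value, took 465 of the 17381 genes listed. The last gene before the limit was RPSAP58, starting at 23758496 with a log2 ratio of -0.18, and the first beyond it was UQCRFS1, starting at 29205320 with a log2 ratio of 0.15.

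The cells were labelled as Hep3B, a human hepatocarcinoma line, and by the series title every group had acquired resistance to sorafenib, a kinase inhibitor given for liver cancer. There were 3 libraries labelled STIM1 knockout and 3 libraries of wildtype cells, called control. STIM1 is the calcium sensor of the endoplasmic reticulum that opens store-operated calcium entry. The labels give no treatment, no clone number and no knockout method, and over the 3 knockout samples their genotype field reads STIM1, STIM2 and STIM3, so the sample titles set the group. Nothing in the labels says that the libraries of a group came from separate cultures, so the p-values measure the spread between these libraries, which may be technical.

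The authors deposited a mean of normalized reads per gene and group. The reads of single libraries were worked out from the exact decimals of these means, and each group's libraries are called A, B and C, largest size factor first, with no link to a sample number. The libraries labelled STIM1 knockout held 12042705 to 15098349 reads in listed genes and the control libraries 13854858 to 16398992. The labels were then checked against the reads. STIM1 itself stood at 1454, 1439 and 1422 normalized reads in the 3 libraries labelled STIM1 knockout, against 1047, 972 and 836 in the 3 control libraries. Its reads were thus higher under the knockout label (limma log2 change 0.60, SE 0.065, Benjamini-Hochberg adjusted p = 8.9e-07), and read counts of a gene do not show whether its protein was lost. Of 15 liver and hepatoma markers 10 were listed, and 2 of them, HNF4A and TF, averaged at least 10 normalized reads in each group. AFP, ALB, APOA1 and AHSG averaged under 1 normalized read in both groups, and SERPINA1 averaged 0 under the knockout label and 6.83 in control, so defining markers of the labelled cell type were at or near 0. The summed level of the hepatoma list ran from 782 to 902 under the knockout label and from 218 to 266 in control, nearly all of it HNF4A, which averaged 817 and 219; of the other listed markers SERPINA1 fell and the rest did not pass. Some markers of other cell types also moved with the groups. The 7 fibroblast and stellate markers summed to 183 to 444 under the knockout label and 2857 to 2972 in control, the 6 endothelial markers to 20.2 to 23.8 and 129 to 163, and the 7 listed blood and immune markers to 87.9 to 109 and 984 to 1083. By the authors' deposited table, 3, 1 and 3 genes of these lists fell, and the other listed genes did not pass. In control most of each sum came from 1 gene. These genes were THY1, averaging 0.953 under the knockout label and 2285 in control, PECAM1, averaging 3.01 and 123, and CD68, averaging 58.4 and 915. Of the endothelial markers that did not pass, CDH5 averaged 12.3 and 9.18, and VWF 4.91 and 5.60. The part of these markers in the results on the short arm was not tested. In bulk RNA fewer cells of a kind and less RNA per cell cannot be told apart.

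Chromosome 19 is the most gene-dense human chromosome, and its short arm carries a tight mixture of housekeeping and regulated genes. Among them are STK11, a kinase that switches on AMPK, KEAP1, the adaptor that sends the stress factor NRF2 for degradation, SMARCA4, the ATPase of SWI/SNF chromatin remodellers, and DNMT1, which copies DNA methylation at replication. Numbered zinc finger genes stand in clusters on the same arm and encode mostly KRAB-type repressors.

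The 250 bases upstream of the annotated start are shown for 3 members that fell (OAZ1, DNMT1 and COLGALT1, 1 from each of the 3 stretches described below), for KEAP1, which had no read under the knockout label, and for 3 members that rose, of which CAMSAP3 and UNC13A lie inside a stretch and MFSD12 outside. Sequences come from RefSeq, build GRCh38.p14, 5′ to 3′ on the gene's own strand. The windows are chr19:2269236-2269485, strand + (OAZ1), chr19:10194954-10195203, strand - (DNMT1), chr19:17555399-17555648, strand + (COLGALT1), chr19:10503357-10503606, strand - (KEAP1, the first of 2 starts in the reference table), chr19:7595613-7595862, strand + (CAMSAP3), chr19:17688355-17688604, strand - (UNC13A) and chr19:3557587-3557836, strand - (MFSD12). Capitals mark 4 motifs searched on both strands, the GC box GGGCGG, the CCAAT box CCAAT, the TATA box TATAAA and the E-box CACGTG; neighbouring matches may share bases.
OAZ1: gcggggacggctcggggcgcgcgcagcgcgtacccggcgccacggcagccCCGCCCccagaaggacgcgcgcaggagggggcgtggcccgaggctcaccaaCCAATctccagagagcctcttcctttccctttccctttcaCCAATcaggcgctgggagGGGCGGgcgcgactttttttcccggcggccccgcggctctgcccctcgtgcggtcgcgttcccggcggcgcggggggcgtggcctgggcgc
DNMT1: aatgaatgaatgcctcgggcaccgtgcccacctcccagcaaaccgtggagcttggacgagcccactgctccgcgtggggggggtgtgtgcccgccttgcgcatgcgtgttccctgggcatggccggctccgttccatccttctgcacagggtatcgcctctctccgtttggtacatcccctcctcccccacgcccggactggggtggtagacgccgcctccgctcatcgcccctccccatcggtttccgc
COLGALT1: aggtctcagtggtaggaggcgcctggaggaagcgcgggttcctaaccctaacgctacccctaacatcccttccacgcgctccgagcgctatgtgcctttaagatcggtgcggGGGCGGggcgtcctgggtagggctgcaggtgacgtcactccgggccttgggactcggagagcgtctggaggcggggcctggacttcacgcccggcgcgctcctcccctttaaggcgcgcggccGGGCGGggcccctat
KEAP1: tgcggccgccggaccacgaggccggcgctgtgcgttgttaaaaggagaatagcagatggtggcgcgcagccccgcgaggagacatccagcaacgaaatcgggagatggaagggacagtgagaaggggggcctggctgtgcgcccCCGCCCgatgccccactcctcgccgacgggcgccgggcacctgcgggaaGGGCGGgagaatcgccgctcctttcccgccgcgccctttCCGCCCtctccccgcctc
CAMSAP3: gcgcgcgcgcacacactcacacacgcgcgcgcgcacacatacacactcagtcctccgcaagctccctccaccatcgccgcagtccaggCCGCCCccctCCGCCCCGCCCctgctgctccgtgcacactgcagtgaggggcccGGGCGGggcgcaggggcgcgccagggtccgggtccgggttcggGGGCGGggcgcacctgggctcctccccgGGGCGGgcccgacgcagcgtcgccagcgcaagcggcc
UNC13A: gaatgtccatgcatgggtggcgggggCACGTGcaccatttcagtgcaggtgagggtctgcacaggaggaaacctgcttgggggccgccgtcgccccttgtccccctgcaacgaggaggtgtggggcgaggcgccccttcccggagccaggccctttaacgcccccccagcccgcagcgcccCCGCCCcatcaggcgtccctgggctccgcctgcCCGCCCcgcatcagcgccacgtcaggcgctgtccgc
MFSD12: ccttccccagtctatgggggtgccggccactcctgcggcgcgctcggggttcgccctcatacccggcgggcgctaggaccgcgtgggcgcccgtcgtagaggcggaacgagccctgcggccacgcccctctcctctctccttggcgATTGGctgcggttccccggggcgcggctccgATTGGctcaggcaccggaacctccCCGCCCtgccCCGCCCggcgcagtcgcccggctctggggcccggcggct
The fallen and risen members shown did not separate by these letters. GC made up 75.2% of the OAZ1 window, 66.8% of DNMT1, 68.4% of COLGALT1 and 70.4% of KEAP1, while the windows of members that rose had 78.0% (CAMSAP3), 72.0% (UNC13A) and 76.0% (MFSD12). The GC box was found 6 times at CAMSAP3, 3 times at KEAP1, 2 times each at OAZ1, COLGALT1, UNC13A and MFSD12, and 0 times at DNMT1. A reference promoter was found for 380 of the 465 members. Among members averaging at least 10 reads, the GC box stood in 81.8% of the 137 promoters inside the stretches, in 73.8% of 187 outside them and in 67.7% of the promoters of all 10190 such genes with one. The CCAAT box stood in 39.4%, 38.5% and 35.1% of these sets, the TATA box in 6.57%, 5.35% and 5.35%, and the E-box in 11.7%, 12.3% and 8.79%. Median GC was 68.4% inside the stretches, 66.8% outside and 65.2% over all genes. The stretches differed among themselves, with median GC of 72.8%, 65.8% and 68.4% in stretches 1, 2 and 3. The GC box stood in 91.7% of 48, 78.4% of 74 and 66.7% of 15 promoters there. These are matches of letters and say nothing of factor binding.

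Genes of the short arm were mostly lower in the libraries labelled STIM1 knockout. In the authors' deposited table, at an adjusted p under 0.05, 265 of the 465 members fell (57.0%, against 28.8% of all 17381 genes) and 53 rose (11.4%, against 25.7% of all genes), while 147 did not pass. A member is called fallen or risen below by this table. The profile value used for positions is log2 of the ratio of group means, knockout label over control, with 1 normalized read added to each mean. Over the 388 members whose group means averaged at least 10, its median was -0.50 (quartiles -1.10 and -0.09), while the median was -0.01 over all genes at that level that were no members. The other 77 members had low reads, and 6 of them were called. In the rest of chromosome 19, again without numbered zinc finger genes, 22.2% of 523 genes fell and 18.2% rose, with a median of -0.02 over the 344 averaging at least 10. The numbered zinc finger genes of the arm itself had another profile, with 11 of 68 fallen, 25 risen and a median of 0.32 over the 51 averaging at least 10.

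A second test on the recovered reads gave similar counts. With limma on log2(normalized reads + 1), 282 of the 437 members tested were lower and 57 higher at a Benjamini-Hochberg adjusted p under 0.05. Of all 15254 genes tested, 36.1% were lower and 32.3% higher. All 3 libraries labelled knockout lay below all 3 control libraries for 281 of the 465 members and above them for 62, beside 33.2% and 29.9% of all genes. Libraries of a group were close together, with a median coefficient of variation of 4.48% under the knockout label and 4.06% in control over 285 members averaging at least 100 in both groups.

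Along the arm the fall was uneven. Members averaging at least 10 reads were put in order of their starts, and a stretch was a run of at least 11 members whose centred window of 11 members had a median beyond 0.5 in size. This gave 3 stretches, all lower under the knockout label. Stretch 1 ran from WDR18 to THOP1, with starts from 982928 to 2785466 (1.80 Mb). Stretch 2 ran from CAMSAP3 to PRDX2, with starts from 7595863 to 12796823 (5.201 Mb). Stretch 3 ran from HAUS8 to UNC13A, with starts from 17049729 to 17601328 (0.552 Mb). Because the values themselves drew the stretches, what follows on their members is a description.

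**Figure D1:**
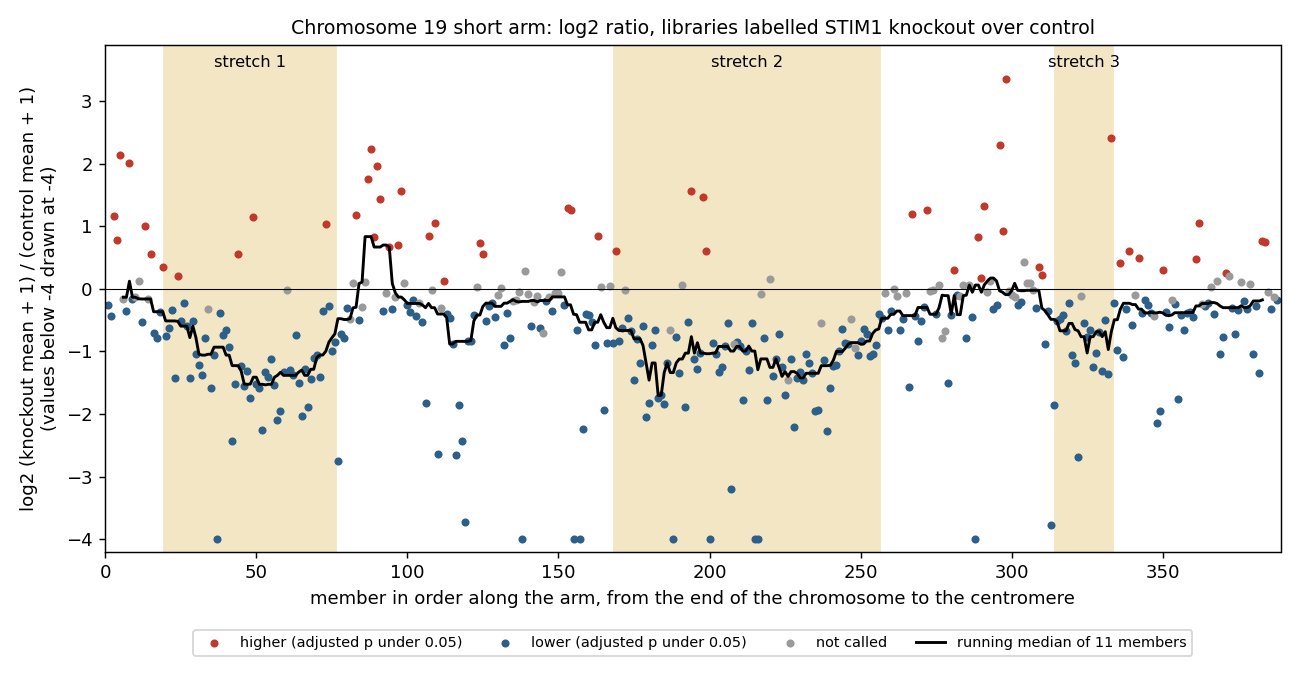
Log2 ratio of group means, libraries labelled STIM1 knockout over control, with 1 added to each mean, for the 388 members averaging at least 10 reads in order along the arm; colours give the authors' calls, the black line the running median of 11 members and the shaded bands the 3 stretches. The line lies near -1 in stretches 1 and 2, returns towards 0 between them, and has 1 peak above 0.5 between stretches 1 and 2.

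In stretch 1, 51 of 63 members fell and 4 rose, with a median of -1.22 over the 57 that averaged at least 10 reads. Its running median deepened from its outer edge inwards and lost depth again towards THOP1. Stretch 2 held 109 members, of which 77 fell and 4 rose, with a median of -1.04 over 88. Stretch 3 held 23, of which 17 fell and 1 rose, with a median of -0.67 over 19. Below -1, a change past 2-fold on this scale, lay 34 of the 57, 48 of the 88 and 7 of the 19 members. Outside the stretches 120 of 270 members fell and 44 rose; over the 224 averaging at least 10 the median was -0.24, and 24 lay below -1. Over such members the part before stretch 1 had a median of -0.16, the part between stretches 1 and 2 -0.29, the part between stretches 2 and 3 -0.11, and the part after stretch 3 -0.27. After stretch 3, 35 of 62 members fell.

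Reads of the members were also summed in each library. The stretches were drawn from the group means, so lower sums inside them follow from that rule. What the sums add is the spread between libraries. Stretch 1 gave 0.208%, 0.209% and 0.208% of the normalized reads of libraries A, B and C labelled knockout, against 0.439%, 0.444% and 0.452% of control libraries A, B and C. Stretch 2 gave 0.312%, 0.316% and 0.311% under the knockout label, against 0.537%, 0.536% and 0.551% in control. Stretch 3 gave 0.0798%, 0.0796% and 0.0829% under the knockout label, against 0.140%, 0.143% and 0.142% in control. The groups did not overlap in any of these sums, and the ratios of mean shares, knockout label over control, were 0.468, 0.579 and 0.572. Outside the stretches the members gave 1.76%, 1.75% and 1.75% under the knockout label, against 1.96%, 1.95% and 1.99% in control, a ratio of 0.891 with the groups again apart.

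**Figure D2:**
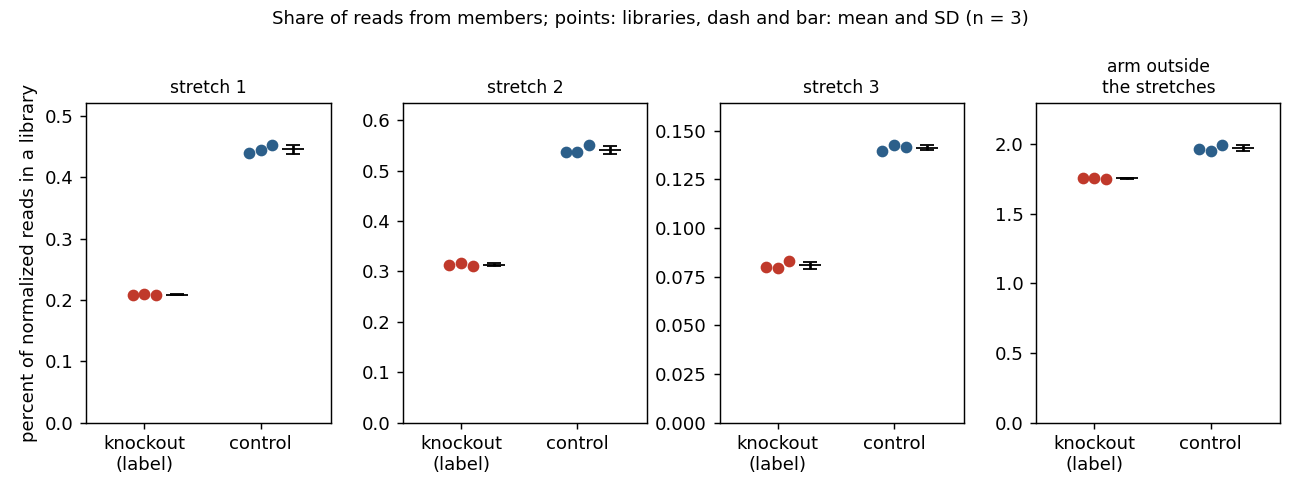
Percent of a library's normalized reads from the members of each stretch and from the rest of the arm, libraries labelled STIM1 knockout left and control right; points are libraries, and the dash with its bar is the mean and SD (n = 3). Stretch 1 averaged 0.208% under the knockout label and 0.445% in control, and the arm outside the stretches 1.75% and 1.97%.

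The median fall inside the stretches, which the rule that drew them constrains, was much the same at every level of expression. Divided by their mean level into 55 low, 54 middle and 55 high members, they had medians of -1.10, -1.05 and -1.04. The calls differed more, with 40, 50 and 52 fallen and 5, 3 and 1 risen. Outside the stretches the medians were -0.29, -0.20 and -0.26 over 75, 74 and 75 members. Of the members inside, 82 lay on each strand. Medians on the plus and the minus strand were -1.08 and -1.32 in stretch 1, -1.10 and -1.04 in stretch 2, and -0.66 and -0.76 in stretch 3. Of the 36 numbered zinc finger genes lying within the stretches 6 fell and 13 rose, with a median of 0.32 over the 27 averaging at least 10. With those genes put back into the order along the arm, stretch 2 shortened to 50 genes.

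The same rule was run over the other chromosomes with all their genes kept. It found 35 lower stretches on 12 of them, the longest of 34 genes on chromosome 16, and 15 higher ones, the longest of 48 genes on chromosome 22. Chromosome 19, treated alike with its zinc finger genes kept, had 5 lower stretches, the longest of 55 genes, and 4 higher ones. Runs of neighbouring genes with a shared direction were therefore found on other chromosomes too. Whole-chromosome medians elsewhere, over genes averaging at least 10, ran from -0.30 (chromosome 16) to 0.35 (chromosome 13). Chromosome 19 as a whole, with its zinc finger genes kept, lay within that range at -0.14. Of all its genes 32.8% fell and 22.0% rose, while on chromosome 16 44.8% fell and 14.5% rose.

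**Figure D3:**
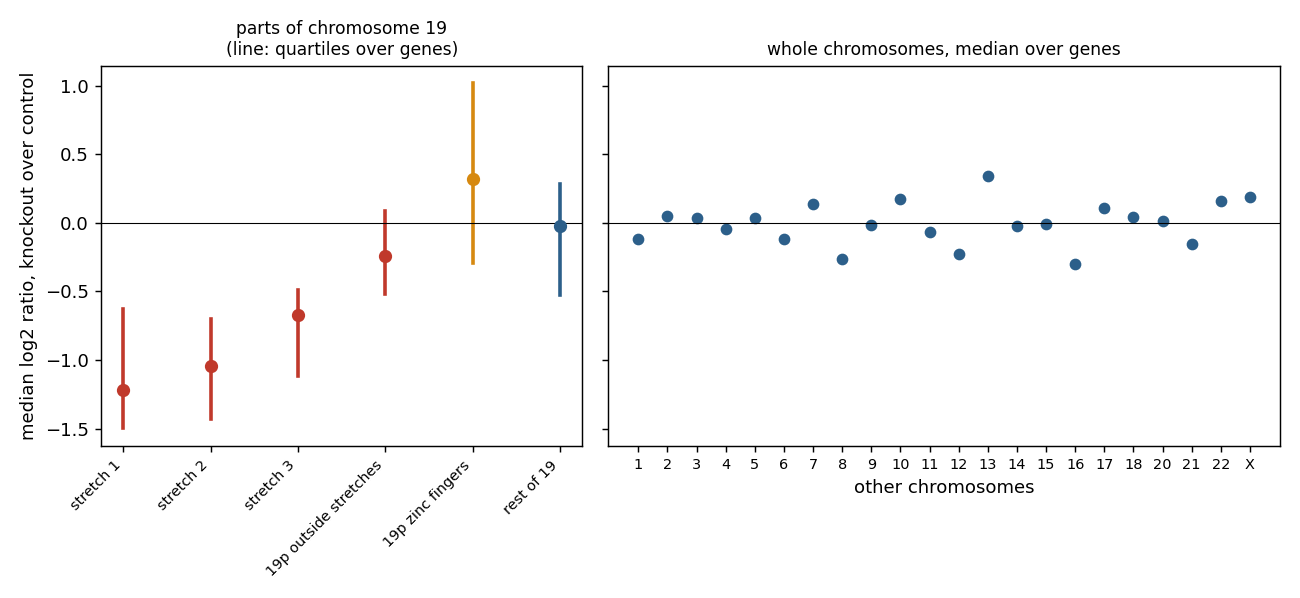
Median log2 ratio of group means, libraries labelled STIM1 knockout over control; left, the 3 stretches, the arm (19p) outside them, its numbered zinc finger genes and the rest of chromosome 19, with lines for the quartiles over genes; right, the other chromosomes as wholes. The stretches lie at -1.22, -1.04 and -0.67, where the rule that drew them places them, and the other chromosomes as wholes, not their own stretches, between -0.30 and 0.35. Chromosome 19 as a whole, which is not drawn, had a median of -0.14.

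The most read genes of stretch 1 fell, by amounts that differed between genes. OAZ1, antizyme 1, which restrains polyamine synthesis, had 2778, 2761 and 2817 normalized reads in the 3 libraries labelled knockout, against 6901, 6698 and 6764 in the 3 control libraries (A, B and C in this order, here and below). The groups were far apart, and the knockout mean was 41.0% of control (limma log2 change -1.28, SE 0.028, Benjamini-Hochberg adjusted p = 1.35e-14). RPS15, a protein of the small ribosomal subunit, had 3766, 3701 and 3713 under the knockout label, against 6225, 6120 and 6309 in control, or 59.9% of control. Ribosomal protein genes have many near-identical copies in the genome, so their reads are uncertain. LMNB2, a lamin of the nuclear envelope, stood at 37.8% of control and AP3D1, a subunit of a vesicle coat adaptor, at 40.7%. TCF3, an E-protein transcription factor, had 764, 760 and 763 reads under the knockout label, against 2569, 2476 and 2624 in control. The libraries within a group were close and the groups far apart (limma log2 change -1.74, SE 0.040, Benjamini-Hochberg adjusted p = 2.62e-14). MKNK2, a kinase that phosphorylates the cap-binding factor of translation, averaged 715 ± 61.9 under the knockout label and 2757 ± 15.8 in control (SD, n = 3 each), 25.9% of control.

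The largest falls in stretch 1 were in less read genes. GAMT, which makes creatine from guanidinoacetate, had 1.91, 0 and 2.38 reads under the knockout label, against 126, 90.6 and 160 in control. Under the knockout label it was thus close to the detection limit, with the groups apart. KLF16, a zinc finger transcription factor, averaged 159 ± 6.0 under the knockout label and 760 ± 52.8 in control, and PCSK4, a proprotein convertase, 22.9 ± 4.99 and 128 ± 5.96 (SD, n = 3 each). STK11 had 26.7, 44.0 and 15.5 reads under the knockout label, against 70.5, 82.0 and 82.9 in control. The groups did not overlap (limma log2 change -1.53, SE 0.29, Benjamini-Hochberg adjusted p = 0.000289), but STK11 overlaps CBARP in the annotation, and the strand of counting is not given in the sources used here. GPX4, which reduces lipid peroxides and guards against ferroptosis, fell less than most members of the stretch. It had 1465, 1399 and 1435 reads under the knockout label, against 1667, 1665 and 1710 in control, or 85.3% of control (limma log2 change -0.23, SE 0.038, Benjamini-Hochberg adjusted p = 7.74e-05).

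Of the 4 members of stretch 1 that rose, ONECUT3, a transcription factor, had the largest ratio at low reads, with 21.9, 20.5 and 30.9 under the knockout label against 6.17, 10.6 and 14.5 in control. DIRAS1, a small GTPase near the inner edge, had 282, 314 and 254 under the knockout label against 115, 145 and 153 in control, 206% of control. ADAMTSL5, a secreted matrix-associated protein, stood at 148% of control and ARHGAP45, a GTPase-activating protein, at 116%. None of these 4 had overlapping groups. At the edges, ARID3A just outside rose to 245 ± 11.3 under the knockout label, against 191 ± 30.2 in control, while WDR18, the first member, fell to 242 ± 18.2 under the knockout label, against 409 ± 25.8 in control (SD, n = 3 each). At the inner edge THOP1, the last member, stood at 55.3% of control and TLE6, just beyond, at 14.4%, so the edge marks where the median of neighbours changed and not where single genes stopped falling.

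Stretch 2 contained regulators of chromatin, protein folding and translation that fell to between 39.9% and 48.7% of control. DNMT1 had 1500, 1429 and 1448 reads in libraries A, B and C labelled knockout, against 3553, 3651 and 3776 in control libraries A, B and C. SMARCA4 had 1270, 1284 and 1298 under the knockout label, against 3192, 3190 and 3253 in control. Both genes were well separated between groups, with limma log2 changes of -1.33 (SE 0.036) and -1.32 (SE 0.034) and Benjamini-Hochberg adjusted p of 1.71e-13 and 8.50e-14. CDC37, the co-chaperone that brings kinases to HSP90, stood at 40.8% of control, and EIF3G, a subunit of a translation initiation factor, at 48.7%.

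PRKCSH, the beta subunit of glucosidase II in glycoprotein folding, averaged 1919 ± 87.0 under the knockout label and 3839 ± 86.2 in control (SD, n = 3 each); it overlaps ODAD3. TYK2, a Janus kinase of cytokine receptors, stood at 50.2% of control, and JUNB, an AP-1 subunit near the end of the stretch, at 53.5%. PRDX2, a peroxiredoxin and the last member, stood at 75.4%, and RNASEH2A, the first gene beyond it, at 72.2%, so the change across this edge was small.

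KEAP1 had 0 reads in all 3 libraries labelled knockout, against 352, 349 and 385 in control libraries A, B and C, in normalized reads. With a floor of 3 reads for the whole group, its level was at least 351-fold lower under the knockout label. S1PR5, a sphingosine 1-phosphate receptor and a near neighbour of KEAP1, had 1 read in all under the knockout label and 294 in control, a ratio of 273 with a 95% counting interval of 48.6 to 10800. SHFL, an interferon-induced inhibitor of viral frameshifting that overlaps ANGPTL6, had 1.91, 0 and 4.76 reads under the knockout label, against 183, 176 and 185 in control. These 3 genes were nearly without reads, while TYK2 and CDC37, which lie between SHFL and KEAP1, kept 50.2% and 40.8% of control; ATG4D, a protease of autophagy next to S1PR5, stood at 94.5% and did not pass the test. Intervals and floors cover counting error only.

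MUC16, the membrane mucin that carries the CA125 antigen, rose inside stretch 2. It had 6313, 6461 and 6421 reads under the knockout label, against 2140, 2146 and 2220 in control, 295% of control (limma log2 change 1.56, SE 0.030, Benjamini-Hochberg adjusted p = 3.63e-15). OLFM2, an olfactomedin-domain secreted protein, had 143, 141 and 158 under the knockout label, against 48.5, 52.1 and 57.0 in control, and COL5A3, a collagen chain, stood at 152% of control. CAMSAP3, which binds microtubule minus ends and is the first member of the stretch, had 729, 720 and 666 under the knockout label, against 447, 468 and 472 in control. For these 4 members the groups did not overlap. HNRNPM, a splicing regulator and one of the most read members, averaged 3331 ± 41.7 under the knockout label and 3180 ± 57.0 in control (SD, n = 3 each) and did not pass (limma Benjamini-Hochberg adjusted p = 0.0633). PNPLA6, a phospholipase just before the stretch, stood at 54.8% of control.

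**Figure D4:**
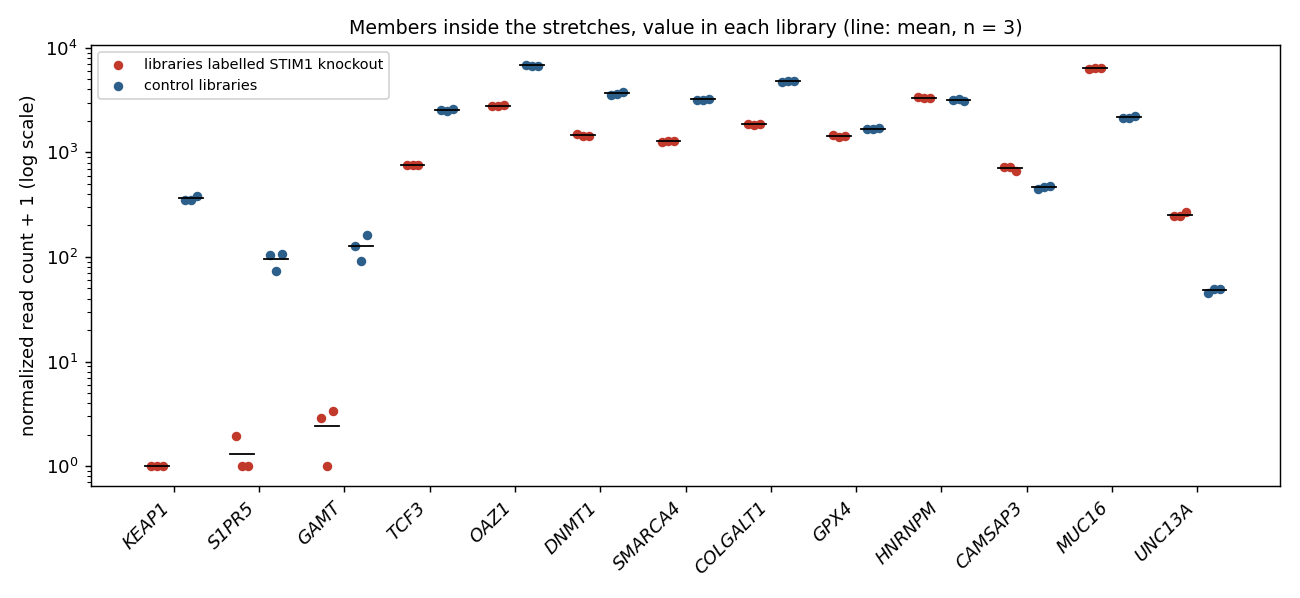
Normalized read counts plus 1, on a log scale, of 13 members inside the stretches in each library, those labelled STIM1 knockout left and control right of each gene; lines are means (n = 3). KEAP1 stands at 0 reads under the knockout label, TCF3 to COLGALT1 are lower there in every library, and CAMSAP3, MUC16 and UNC13A are higher.

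In stretch 3, COLGALT1, which adds galactose to collagen, had 1882, 1840 and 1853 reads under the knockout label, against 4687, 4834 and 4846 in control. It stood at 38.8% of control with the groups far apart (limma log2 change -1.37, SE 0.031, Benjamini-Hochberg adjusted p = 2.40e-14), and it overlaps NIBAN3. BST2, tetherin, which holds budding viruses at the cell surface, averaged 2050 ± 101 under the knockout label and 4172 ± 18.97 in control (SD, n = 3 each). BABAM1, of a BRCA1-linked repair complex, stood at 48.1% of control, SLC27A1, a fatty acid transporter, at 39.9%, and MYO9B, an unconventional myosin, at 71.3%. ABHD8, a hydrolase-fold protein, had 41.9, 75.2 and 45.2 under the knockout label, against 291, 409 and 358 in control; it overlaps MRPL34, which averaged 758 and 817 and did not pass. NR2F6, an orphan nuclear receptor, fell to 86.0% of control.

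UNC13A, which primes synaptic vesicles for release, closed stretch 3 and rose. It had 243, 245 and 271 reads under the knockout label, against 44.0, 48.2 and 48.7 in control, 539% of control (limma log2 change 2.40, SE 0.13, Benjamini-Hochberg adjusted p = 3.77e-10). The gene next to it inside the stretch was COLGALT1, with the opposite direction. HAUS8, of the augmin complex of the spindle, opened the stretch at 69.7% of control, after CPAMD8 at 26.7% just before it, and MAP1S, a microtubule-associated protein just after the stretch, stood at 85.2%.

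Some of the most read genes of the arm lay outside the stretches. EEF2, the elongation factor that moves the ribosome along, averaged 45281 ± 19.09 under the knockout label and 54168 ± 1027 in control (SD, n = 3 each), 83.6% of control. TPM4, a tropomyosin, averaged 11619 ± 105 under the knockout label and 11865 ± 214 in control and did not pass. CALR, the calcium-binding chaperone of the endoplasmic reticulum, had 7694, 7650 and 7440 under the knockout label, against 12418, 11527 and 11851 in control, so it fell to 63.7% of control with the groups apart. BSG, basigin, stood at 89.0%, while MFSD12 rose.

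A run of 9 members from FZR1 to TJP3, between stretches 1 and 2, was higher, with a median of 0.83, 6 risen and 1 fallen. MFSD12, a lysosomal and melanosomal cysteine transporter, had 12160, 11924 and 12757 reads under the knockout label, against 3621, 3638 and 3713 in control, 336% of control (limma log2 change 1.75, SE 0.029, Benjamini-Hochberg adjusted p = 1.26e-15). C19orf71, which lies within MFSD12 on the other strand, stood at 472% of control, and the reads of these 2 genes cannot be told apart without strand. GIPC3, a PDZ-domain protein of hearing, had 499, 518 and 556 under the knockout label, against 128, 139 and 136 in control. FZR1, an activator of the anaphase-promoting complex that overlaps MFSD12, averaged 1001 ± 55.8 under the knockout label and 929 ± 18.5 in control and did not pass. A run of 9 members from UBXN6 to DPP9 lay lower, with a median of -0.88 and all 9 fallen.

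Other rises outside the stretches were spread along the arm. NOTCH3, a receptor of juxtacrine signalling, had 5966, 5892 and 5962 reads under the knockout label, against 2369, 2461 and 2330 in control, 249% of control. CYP4F3, a fatty acid hydroxylase of the leukotriene pathway, had 717, 721 and 713 under the knockout label, against 152, 144 and 138 in control, 496% of control; the CYP4F genes are close copies, so reads may be shared among them. INSR, the insulin receptor, averaged 1574 ± 31.4 under the knockout label and 874 ± 31.2 in control (SD, n = 3 each). SHC2, a signalling adaptor, stood at 464% of control and ZFR2, an RNA-binding protein, at 302%, both at under 100 reads. In these 5 genes no library labelled knockout lay below a control library.

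Near-complete losses also occurred outside the stretches. TUBB4A, a tubulin of neural tissue, had 1 read in all under the knockout label and 1156 in control, a ratio of 1070 with a 95% counting interval of 192 to 42500. CD70, a ligand of the TNF family, had 3.81, 5.86 and 3.57 reads under the knockout label, against 733, 715 and 805 in control. CASP14, a caspase of the epidermis, had 0, 6.84 and 1.19 under the knockout label, against 485, 345 and 341 in control. FUT6, a fucosyltransferase with close copies beside it, had 5.72, 0 and 0 under the knockout label, against 411, 388 and 450 in control. Of the 319 members averaging at least 100 in control, 8 kept under 5% of that level, or 2.51%, beside 216 of 10205 genes (2.12%) in the whole table, so the share on the arm was near that of all genes. Those 8 were KEAP1, GAMT, SHFL, ANGPTL4, TUBB4A, CD70, CASP14 and FUT6. C3, the central complement component, kept more, with 1612, 1616 and 1567 under the knockout label, against 7631, 7482 and 7505 in control, 21.2% of control. LONP1, the protease of the mitochondrial matrix, stood at 58.3% and overlaps RPL36 and CATSPERD.

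Genes of the arm were also grouped by role, in lists chosen with earlier results of these data known, and some genes stand in more than 1 list. Medians of a list are over all its measured members, low reads included. In every list more members fell than rose, as on the arm as a whole. On the arm 57.0% of members fell and 11.4% rose, beside 28.8% and 25.7% of all genes. No list was tested against these shares. Of 36 listed chromatin and transcription genes, 24 fell and 4 rose (HMG20B, MED26, ARID3A and NFIX). The 10 listed inside the stretches all fell, among them SMARCA4, DNMT1, TCF3 and DOT1L, a histone methyltransferase. The median of the listed genes was -1.32 inside the stretches and -0.34 outside. ONECUT3, a transcription factor that rose inside stretch 1, was not in this list. Of 21 RNA processing genes, 16 fell and 1 rose (DDX39A), with medians of -1.05 and -0.22; SF3A2, of the spliceosome, stood at 35.4% of control. Of 12 ribosome and translation genes, 9 fell and 3 did not pass, with medians of -0.98 and -0.29.

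Of the 19 mitochondrial genes, 12 fell and 7 did not pass. The 8 inside the stretches all fell, with a median of -1.05, including UQCR11, of respiratory complex III, at 40.1% of control and NDUFS7, of complex I, at 47.9%. Of the 11 outside, 4 fell and 7 did not pass, with a median of -0.09. Of 30 growth signalling genes, 10 of 11 inside fell, with a median of -1.42, and 9 of 19 outside fell while INSR, NOTCH3 and SHC2 rose, with a median of -0.10. Of 17 replication, repair and cell cycle genes 14 fell and 3 did not pass, with medians of -1.05 inside and -0.44 outside. Of 15 early response and stress genes 11 fell, among them CIRBP, a cold-inducible RNA-binding protein, at 38.6% of control, and 1 rose (JUND), with medians of -1.10 and -0.18.

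Of 29 lipid and membrane transport genes measured, 17 fell and 5 rose, with medians of -1.36 inside the stretches and -0.14 outside; the risen were CYP4F3, CYP4F11, CYP4F12, B3GNT3 and PLIN3, all outside. Of 20 adhesion and immune surface genes measured, 11 fell and 3 rose (EBI3, TJP3 and TICAM1), with medians of -1.26 and -0.33. The 9 members that rose inside the stretches were in none of the 9 lists. That no listed member rose there thus depends on which genes were listed. Since values drew the stretches, differences between the inside and outside counts and medians follow in part from that rule and are a description.

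**Figure D5:**
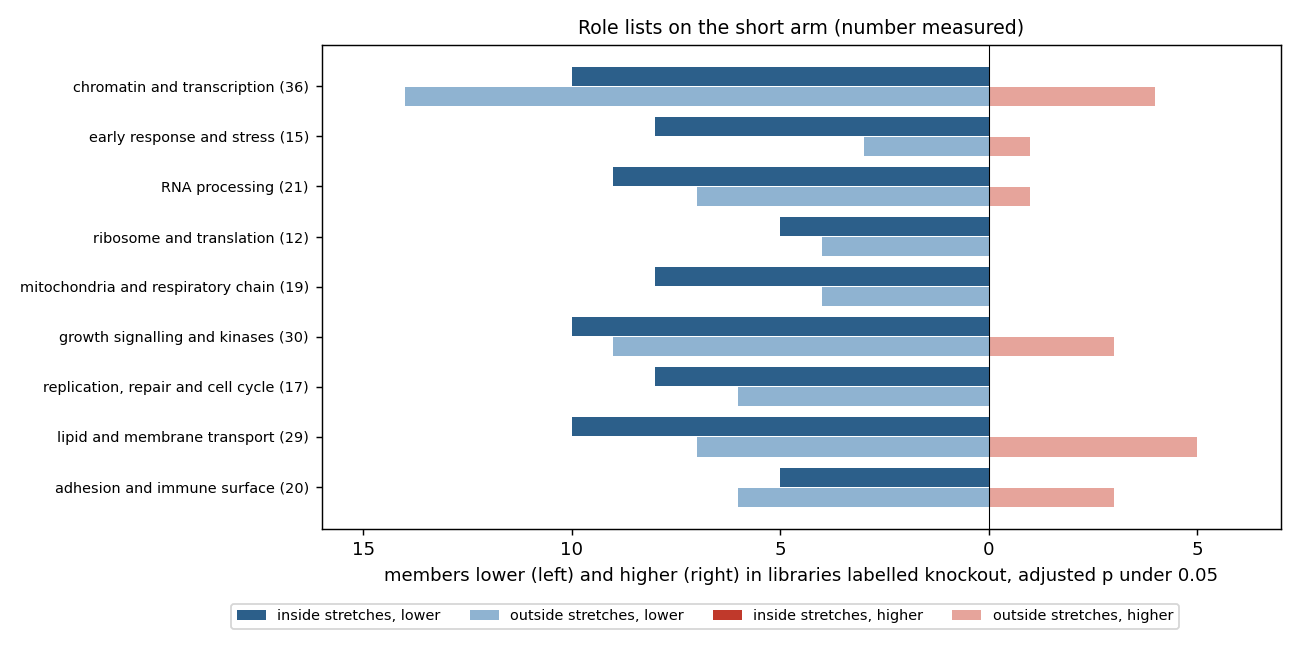
Members of 9 role lists called lower (left of 0) and higher (right of 0) in the libraries labelled STIM1 knockout by the authors' table, inside and outside the stretches; numbers in brackets are members measured. For chromatin and transcription 10 members fell inside and 14 outside, and 4 rose, all outside.

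Reads of some members are uncertain for reasons of annotation. Of the 465 members, 96 overlap another listed gene, and 12 have a copy on an alternate sequence of the assembly, which takes part of the reads. For SAMD1 the profile value was -0.71 on the main copy and -0.17 with both copies summed, and for RFX1 0.13 and -0.23. With no reads in a group, 17 members were at 0 under the knockout label alone and 5 in control alone.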

How the data were processed

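RNA was measured in 6 libraries, 3 labelled STIM1 knockout and 3 control, prepared from total RNA with a SMARTER mRNA-Seq kit, per the labels' protocols. The aligner, counter and strand setting are not given in the sources used here. The submitters' processing notes name GRCm38 and mm10, mouse builds, while the chromosome accessions are those of human GRCh38, the build used. The signal deposited by the authors is, per the file headers, the mean over a group of read counts divided by size factors. Their ratio (fold change), its log2 value and the p-value with its adjusted form were also deposited by the authors, in DESeq-style columns. The deposit held no counts, so the authors' comparison at an adjusted p under 0.05 stands first, as planned for that case.

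Each group mean is a sum of 3 whole counts in fixed steps, which gave the reads of each library for 17381 of 17381 genes; several sets of reads were possible for 3 knockout and 2 control genes, none a member. Recomputed size factors differed by at most 1.11e-13%. The recovery and limma were checked on simulated data. limma 3.58.1 in R 4.3.3, with trend and Benjamini-Hochberg adjustment over all genes, ran on log2(normalized reads + 1) of genes averaging at least 1. Other computation used Python 3.11.15. Coverage of 12042705 to 16398992 reads limits genes under about 10 reads.

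Named genes are, for each stretch, its edge members, those just outside, the 4 most read, the 3 largest falls and the 3 largest rises; for the arm, the 8 largest falls and rises among called members with a mean of at least 50 in the higher group, the 6 most read, 2 of smallest p from each role list, and GPX4, STK11, KEAP1, SMARCA4 and INSR. ARHGAP45, COL5A3, ATG4D, JUNB, TYK2, NDUFS7, DOT1L, FZR1, ANGPTL4, SAMD1, RFX1 and the risen members of role lists were named after their values were seen. A few genes chosen by the rule are not reported here. The members and lists were chosen with earlier results of these data known.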

Additional observations from a re-analysis of the deposited data

How the results depend on the processing

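No call, count, median, edge or share in the table of alternatives reversed; the profile value of RFX1, which was not called, changed sign with alternate copies summed (0.13 and -0.23). Of the alternatives for the counts, medians, edges and shares, 146 left the result within its limits and 17 moved it; for single genes and lists 998 left it, 39 moved it, 2 brought a call and 1 ended one. Requiring a log2 change of at least 1 left 118 fallen and 24 risen members, and 54 and 5 in the role lists. The arm's median became -0.47 with 10 added to each mean, -0.47 over members averaging at least 100 and -0.43 with zinc finger genes kept. The median of stretch 1 became -1.14 with 10 added and -1.10 over members averaging at least 1, and ran from -1.25 to -1.16 with each library left out. The median of stretch 2 became -0.89, and its length 50 genes, with zinc finger genes kept. Without their most read members the ratios of read shares were 0.454 (stretch 1), 0.592 (stretch 2) and 0.628 (stretch 3). The cause of these moves was not tested. With a running-median threshold of 0.7 no stretch was found in place of stretch 3. Library totals or size factors from other chromosomes left the arm's median within its limits, at -0.50 and -0.51. In limma, ARID3A did not pass without control library C (adjusted p = 0.0601), and HNRNPM passed with library totals (0.0438) or without control library B (0.0492). Summing alternate copies and trying other profiles for the edges were chosen after seeing the data. No paired analysis was possible because the titles' replicate numbers cannot be tied to the recovered libraries, so the replicate block was not run. Depth limits members with few reads, where a loss to 0 and a low level cannot be told apart.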
